A study of Mus musculus with 21 samples.

Results

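The genes described here are 20 expressed genes whose annotated locus is longer than 300 kb, of 53796 genes listed in each expression table of a study in mouse embryonic stem (ES) cells. A gene was a member when its locus, in the table of differentiating cells, spanned more than 300 kb, was held by no other listed gene, and when its mean over the 6 libraries of that table was at least 1 FPKM. FPKM is the number of sequenced fragments of a gene, scaled to the length of its transcript and to the size of the library. Of 3737 genes listed at a locus over 300 kb, 3677 shared that locus with another listed gene and 60 held it alone. Of these 60, 40 were under the level minimum, 5 of them at 0 in all 6 libraries. All 20 members are protein-coding in RefSeq, and all 20 overlap the RefSeq gene of the same symbol in GRCm38.p6. In RefSeq 17 of the 20 span more than 300 kb. The exceptions are Ehbp1 with 281 kb, Stk3 with 280.4 kb and Btbd3 with 30.8 kb, so these 3 count as longer than 300 kb only by the locus that the tables give.

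Transcribing a gene of this size takes RNA polymerase II hours, and most of the transcript is intron that is removed by splicing. Dot1l is the enzyme that methylates a lysine in the globular part of histone H3, a mark laid down along the first part of transcribed genes, and it is found with factors that promote elongation of the transcript. Long genes are known to be rich in adhesion, signalling and cytoskeletal functions, and several of them span fragile sites of the genome.

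The RNA libraries came from 5 groups of 3, all from V6.5 cells. Dot1l KO cells, and control cells with a control guide RNA and a wild-type genotype label, were harvested after 24 h with Wnt3a at 50 ng/ml and activin A at 10 ng/ml, which steers ES cells toward primitive streak fates. The same 2 genotypes were harvested in serum medium with 100 U/ml LIF (leukemia inhibitory factor), the cytokine that holds ES cells in self-renewal. A further group of ES cells in LIF medium is labelled Cdk1as/as, which is an analog-sensitive form of the mitotic kinase Cdk1, although the series design calls these cells wild type. All cells were maintained on inactivated fibroblast feeders, and differentiation was on gelatin. Nothing in the labels tells a KO clone from a KO pool, or separate cultures from repeat libraries of one culture. The p-values therefore cover only the spread among the libraries at hand, part of which may be technical.

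Dot1l itself had 13.5, 12.9 and 14.7 FPKM in KO libraries under Wnt3a and activin A, against 18.5, 17.7 and 19.1 FPKM in control libraries (log2 fold change -0.40, limma adjusted p = 0.00462). In LIF it had 11.2, 8.90 and 10.8 FPKM in KO libraries, against 21.2, 20.6 and 24.6 FPKM in control libraries (log2 fold change -1.04, limma adjusted p = 0.0178). The transcript was lower but present in every KO library, and protein was not measured. Dot1l shares its locus with 1 other listed gene. The ES cell markers Pou5f1, Nanog, Sox2, Zfp42, Esrrb and Tfcp2l1 were detected in both genotypes, and in the differentiating libraries the 6 primitive streak markers T, Mixl1, Eomes, Gsc, Lhx1 and Mesp1 were also detected. Summed streak marker levels were 1034 to 1070 FPKM in KO and 653 to 707 FPKM in control libraries, and all 6 rose. Most of that sum was T, with 685 to 701 FPKM in KO and 529 to 584 FPKM in control libraries. The ES cell markers summed to 1117 to 1212 FPKM in KO and 1859 to 2002 FPKM in control libraries there. Most of that sum was Pou5f1, with 1050 to 1142.5 FPKM in KO and 1760 to 1904 FPKM in control libraries. Of the 5 tested 4 fell, and Sox2 did not pass the threshold (log2 fold change 0.14, limma adjusted p = 0.353). The untested Tfcp2l1 was higher in KO, with 0.90 to 1.10 FPKM against 0.536 to 0.655 FPKM in control libraries. In LIF the 6 markers summed to 1963 to 2028 FPKM in KO and 2356 to 2458 FPKM in control libraries, and all 6 fell. In bulk samples, fewer cells of a type and less RNA per cell cannot be told apart.

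Other values also moved with the genotype. Summed FPKM over all genes was 759255 to 792381 in KO and 1087971 to 1144373 in control libraries under Wnt3a and activin A. In LIF it was 1079784 in KO replicate 3 and 835737 to 895128 in the other 5 libraries. The 4 neural markers Sox1, Pax6, Tubb3 and Nes summed to 25.8 to 27.8 FPKM in KO and 43.4 to 46.8 FPKM in control libraries under Wnt3a and activin A, where both tested ones fell, and to 43.8 to 52.4 FPKM in KO and 39.8 to 43.4 FPKM in control libraries in LIF, where 0 of 4 were called. The 9 fibroblast and feeder markers summed to 118 to 127 FPKM in KO and 289 to 320 FPKM in control libraries under Wnt3a and activin A, where 3 of the 6 tested rose and 1 fell. Most of that sum was Tagln, with 75.6 to 81.2 FPKM in KO and 249.7 to 281 FPKM in control libraries. In LIF they summed to 69.3 to 77.3 FPKM in KO and 36.8 to 57.4 FPKM in control libraries, where 1 of the 5 tested rose. The fibroblast marker Lum was at 0 in all LIF libraries and in the differentiating controls, and Dcn was at 0 in the LIF controls. The part of these shifts in the results on long genes was not tested.

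The members were selected on the mean level under Wnt3a and activin A, so that level is a description. It ran from 1.13 FPKM for Gucy1a2 to 13.1 FPKM for Smyd3. Just inside the level minimum were Gucy1a2 and Fmn2 with 1.17 FPKM, and just outside it were Kcnh8 with 0.977 and Ldlrad4 with 0.874 FPKM. Just inside the span minimum were Stk3 with 303 kb and Arhgef28 with 307 kb, and just outside it were Zfp423 with 298 kb and Sipa1l1 with 282 kb. The longest members were Kalrn with 599 kb, Smyd3 with 566 kb, Pde4b with 519.7 kb, Rad51b with 517 kb and Spock1 with 487 kb. Slc4a4, Robo1, Gucy1a2, Spock1 and Pde4b had a mean of at least 1 FPKM in only 1 of the 2 groups. They passed the minimum through the group where they were high, so counts of calls over the members under Wnt3a and activin A support nothing.

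Under Wnt3a and activin A, 6 of the 20 long genes rose and 3 fell in KO cells (limma on log2(FPKM + 1), adjusted p under 0.05 over all 12770 genes tested). Dlc1, Slc4a4, Robo1, Btbd3, Gucy1a2 and Ehbp1 rose, and Rad51b, Smyd3 and Plxdc2 fell. Over all tested genes 49.1% were called, 19.6% higher and 29.5% lower. Of the 15 members with both group means at 1 FPKM or above, 3 rose (Dlc1, Btbd3 and Ehbp1) and 3 fell. In RefSeq Btbd3 spans 30.8 kb and Ehbp1 281 kb, so among these rises only Dlc1 is longer than 300 kb there. The KO libraries all lay above the controls in 11 members and all below in 4, against 25.3% and 34.8% of all tested genes (60.1% either way). The median log2 fold change of the members was 0.33, against -0.08 over all tested genes. After median-of-ratios rescaling 10 members were higher and 2 lower, and after the dependence on span and level was removed 4 were higher and 6 lower. Over all tested genes the split of 2500 higher and 3773 lower also moved, to 3063 and 3156 after the rescaling. After the removal it was 2412 and 2477 of 12294 genes, so lower calls became fewer over all genes and more among the members. The removal subtracts the change that goes with span, by which the members were chosen. The member counts were not tested against those over all genes and remain a description. None of the 11 members without a call kept both their direction and their lack of a call in every alternative. Calls were gained after rescaling by Kalrn, Prkd1, Sh3kbp1 and Stk3 (all higher), without a limma trend by Prkd1, Sh3kbp1, Spock1 and Stk3 (all higher), and after the removal of the dependence on span and level by Pde4b, Piezo2 and Vti1a (all lower). All 9 called members kept their direction in every alternative in which they were tested, and 6 of them also their call: Dlc1, Slc4a4, Robo1, Btbd3, Smyd3 and Rad51b. The alternatives reuse the libraries by which the members were chosen. They are therefore no support for Slc4a4, Robo1 and Gucy1a2, which passed the level minimum through the KO libraries. The q-value in the authors' deposited table called 14 of the 20, against 45.1% of its tested genes.

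**Figure D1:**
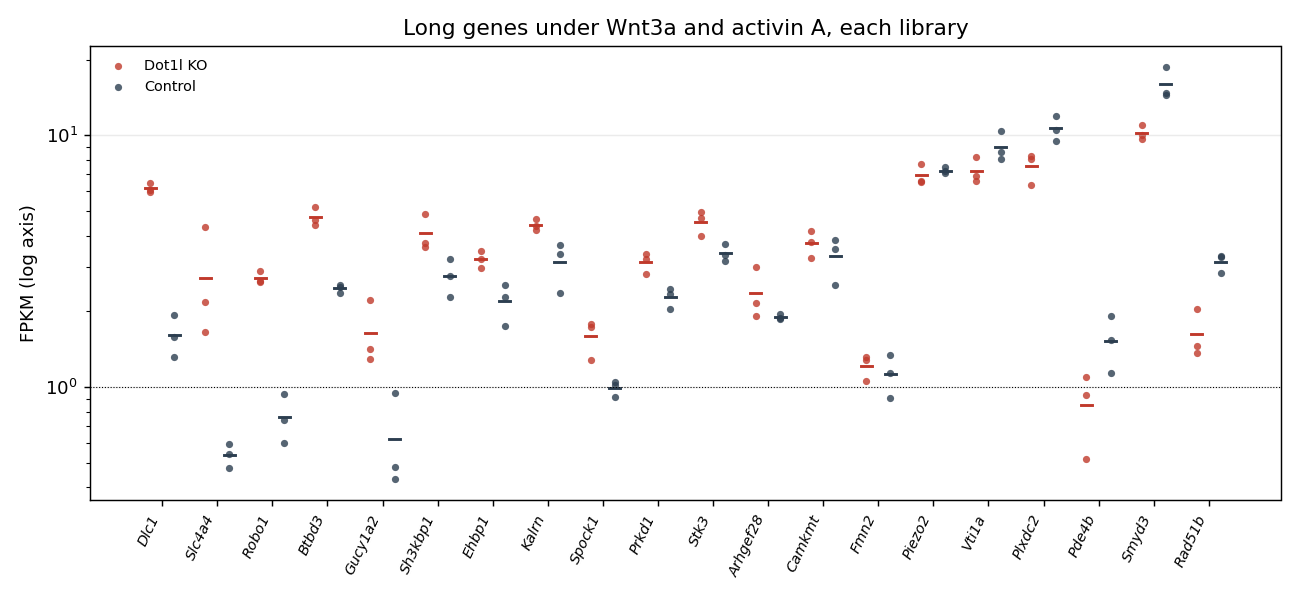
FPKM (log axis) of the 20 long genes in each of 3 KO and 3 control libraries under Wnt3a and activin A. Points are libraries, short bars are group means, the dotted line is the 1 FPKM minimum, and genes run from the largest rise at the left, Dlc1, to the largest fall at the right, Rad51b.

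The promoters of the members were looked up because the rule did not use sequence. RefSeq promoters of GRCm38.p6, 250 bases before to 50 bases after a start, were found for 15 of the 20. For 12 of these the start lay within 1 kb of the edge of the locus. The median promoter held 19 CpG dinucleotides, with a range of 8 to 50, against 21 in 4274 expressed genes at a locus of their own and 7 in all 27025 genes of the table. TATAAA on either strand occurred in 0 of the 15, against 6.93% of the expressed genes. GGGCGG on either strand occurred in 60.0%, against 67.2%. CCAAT on either strand occurred in 20.0%, against 40.2%. These are descriptions of letters in a fixed window. For members with several promoters the start nearest the locus edge was taken, and for the comparison sets the first one listed. The sides were thus chosen by unlike rules.

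The promoters of the 3 largest rises with a start near the locus edge, and that of Rad51b, the one fall with such a start, show the range of CpG content among members that moved. Each is given from 5′ to 3′ with every CG in capitals: Slc4a4 at chr5:88887010-88887309, Robo1 at chr16:72662899-72663198, Btbd3 at chr2:138256334-138256633 and Rad51b at chr12:79297032-79297331, all on the plus strand.
Slc4a4: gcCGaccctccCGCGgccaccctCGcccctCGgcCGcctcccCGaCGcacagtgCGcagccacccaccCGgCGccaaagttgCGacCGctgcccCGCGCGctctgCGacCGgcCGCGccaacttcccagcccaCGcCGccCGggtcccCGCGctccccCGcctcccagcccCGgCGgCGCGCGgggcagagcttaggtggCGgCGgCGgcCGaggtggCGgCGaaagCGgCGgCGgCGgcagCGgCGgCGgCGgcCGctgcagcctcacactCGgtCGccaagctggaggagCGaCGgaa
Robo1: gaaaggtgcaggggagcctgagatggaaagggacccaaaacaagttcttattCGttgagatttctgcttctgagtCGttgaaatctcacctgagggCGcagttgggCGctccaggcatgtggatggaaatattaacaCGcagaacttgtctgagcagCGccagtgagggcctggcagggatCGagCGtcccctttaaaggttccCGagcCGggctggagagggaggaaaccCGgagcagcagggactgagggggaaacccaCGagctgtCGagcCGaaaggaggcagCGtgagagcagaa
Btbd3: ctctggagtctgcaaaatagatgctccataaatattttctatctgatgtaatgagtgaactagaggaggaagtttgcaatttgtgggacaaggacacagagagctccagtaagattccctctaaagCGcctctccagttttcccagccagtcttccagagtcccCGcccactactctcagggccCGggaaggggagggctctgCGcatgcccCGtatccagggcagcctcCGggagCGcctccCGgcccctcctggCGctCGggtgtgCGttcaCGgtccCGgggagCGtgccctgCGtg
Rad51b: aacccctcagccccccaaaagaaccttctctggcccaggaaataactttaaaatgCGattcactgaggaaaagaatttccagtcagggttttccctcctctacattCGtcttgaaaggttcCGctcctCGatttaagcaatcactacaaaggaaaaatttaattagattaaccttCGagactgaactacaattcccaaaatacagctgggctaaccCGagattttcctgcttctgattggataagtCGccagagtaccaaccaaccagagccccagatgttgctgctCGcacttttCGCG
Slc4a4 held 50 CpG, Robo1 and Btbd3 15 each, and Rad51b 10, so genes that rose did not share one CpG content. The RefSeq genes of Slc4a4 and Robo1 begin further upstream, so the starts shown for them are internal to those genes.

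On the log2(FPKM + 1) scale the largest of the 20 changes was in Dlc1. It encodes a GTPase-activating protein and is known as a tumour suppressor in human cells (ENSMUSG00000031523, chromosome 8, 36567751 to 36953143 of GRCm38). Dlc1 had 6.09, 6.45 and 5.95 FPKM in KO libraries under Wnt3a and activin A, against 1.59, 1.31 and 1.94 FPKM in control libraries. The groups did not overlap, and the fold change was 1.46 on the log2 scale (SE 0.12, limma adjusted p = 0.000297). In LIF the same gene had 34.3, 32.8 and 30.4 FPKM in KO libraries, against 40.6, 43.8 and 44.2 FPKM in control libraries. There all KO libraries lay below the controls, with a log2 fold change of -0.39 (SE 0.07, limma adjusted p = 0.0369). The LIF call ended in each of the 6 fits that left out 1 library, with adjusted p between 0.0694 and 0.122. The KO effect differed between conditions by 1.85 on the log2 scale (SE 0.13, limma adjusted p = 7.93e-06). ES cells had 46.6, 45.7 and 40.6 FPKM in their own table, so the level of Dlc1 was low in all differentiating libraries and high in all libraries in LIF, in tables that were scaled separately.

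Kalrn, Arhgef28 and Fmn2, which act on the cytoskeleton, did not pass the threshold in either condition. Kalrn encodes kalirin, a guanine nucleotide exchange factor (chromosome 16, 33974258 to 34573532). It had 4.67, 4.38 and 4.20 FPKM in KO libraries under Wnt3a and activin A, against 3.67, 2.36 and 3.39 FPKM in control libraries (log2 fold change 0.40, limma adjusted p = 0.0655). In LIF it had 4.54, 4.74 and 4.44 FPKM in KO libraries, against 3.44, 2.95 and 3.09 FPKM in control libraries (log2 fold change 0.43, limma adjusted p = 0.0638). Its KO libraries lay above the controls in both conditions, and neither difference passed the threshold in the main limma fit. By the authors' deposited q-value Kalrn passed in both (0.00325 under Wnt3a and activin A, 0.0085 in LIF). After median-of-ratios rescaling it also passed under Wnt3a and activin A (limma adjusted p = 0.0382). Arhgef28, another exchange factor, had log2 fold changes of 0.20 under Wnt3a and activin A and 0.48 in LIF (limma adjusted p = 0.326 and 0.128). Its LIF levels were 1.37, 1.37 and 1.27 FPKM in KO libraries, against 0.771, 0.693 and 0.559 FPKM in control libraries, without overlap. Fmn2, a formin that nucleates actin and acts in mouse oocyte meiosis, had 1.05 to 1.32 FPKM in KO and 0.909 to 1.35 FPKM in control libraries under Wnt3a and activin A. In LIF it had 1.19 to 1.31 FPKM in KO and 1.59 to 3.48 FPKM in control libraries (log2 fold change -0.51, limma adjusted p = 0.240).

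Robo1 encodes a receptor for Slit guidance proteins (ENSMUSG00000022883, chromosome 16, 72663149 to 73046095; the RefSeq gene reaches further upstream and spans 1020.0 kb). It had 2.61, 2.88 and 2.64 FPKM in KO libraries under Wnt3a and activin A, against 0.742, 0.939 and 0.598 FPKM in control libraries. All KO libraries were above all controls, and the fold change was 1.08 on the log2 scale (SE 0.14, limma adjusted p = 0.00132). Robo1 passed the level minimum through these KO libraries, so this change and the difference between conditions are descriptions. In LIF it had 2.904, 2.836 and 2.497 FPKM in KO libraries, against 2.51, 2.44 and 2.72 FPKM in control libraries. Those groups overlapped (log2 fold change 0.07, limma adjusted p = 0.716), and the KO effect differed between conditions by 1.01 (SE 0.15, limma adjusted p = 0.000564). The differentiating controls thus had a lower Robo1 level than every other group, while the KO level was 2.71 ± 0.147 FPKM under Wnt3a and activin A and 2.75 ± 0.218 FPKM in LIF (SD, n = 3 each), in separately scaled tables.

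Slc4a4 encodes a sodium bicarbonate cotransporter that moves base across the membrane (ENSMUSG00000060961, chromosome 5, 88886818 to 89239653). Its RefSeq gene reaches further upstream and spans 445.8 kb. Slc4a4 had 1.65, 4.31 and 2.18 FPKM in KO libraries under Wnt3a and activin A, against 0.594, 0.476 and 0.543 FPKM in control libraries. The groups did not overlap, KO replicate 2 was the highest, and the fold change was 1.21 on the log2 scale (SE 0.27, limma adjusted p = 0.0125). Slc4a4 passed the level minimum through these KO libraries, so this change is a description. The size of the change of low genes depends on the pseudocount of 1 FPKM, which understates it. With a pseudocount of 0.1 FPKM the log2 fold change was 2.03 for Slc4a4, above the 1.89 of Dlc1, and it was 1.73 for Robo1 and 1.31 for Gucy1a2. In LIF its mean was under 1 FPKM, with 1.37, 0.517 and 0.547 FPKM in KO libraries and 0.379, 0.644 and 0.670 FPKM in control libraries, which overlapped.

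Plxdc2, which encodes a transmembrane protein with a plexin-type domain, was lower (ENSMUSG00000026748, chromosome 2, 16356304 to 16755839). It had 6.32, 8.08 and 8.31 FPKM in KO libraries under Wnt3a and activin A, against 10.5, 11.9 and 9.52 FPKM in control libraries. The groups did not overlap (log2 fold change -0.45, SE 0.13, limma adjusted p = 0.0299). That call ended after median-of-ratios rescaling (adjusted p = 0.0518), with no filter on low values (0.0631), and without KO replicate 1 or 2 or control replicate 1 or 2 (0.0582 to 0.0918). Its LIF values were 2.29, 1.81 and 2.34 FPKM in KO libraries, against 1.35, 1.32 and 1.89 FPKM in control libraries, with overlap (log2 fold change 0.32, limma adjusted p = 0.265). The KO effect differed between conditions by -0.77 (SE 0.19, limma adjusted p = 0.00972).

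Piezo2, a mechanosensitive cation channel, did not pass the threshold between genotypes under Wnt3a and activin A. It had 7.71, 6.55 and 6.59 FPKM in KO libraries under Wnt3a and activin A, against 7.06, 7.47 and 7.21 FPKM in control libraries (log2 fold change -0.06, limma adjusted p = 0.629). After removal of the dependence on span and level it was -0.33 and passed (limma adjusted p = 0.0300). In LIF it was at 0.125 to 0.408 FPKM in KO and at 0.0189 to 0.146 FPKM in control libraries. Spock1, a secreted proteoglycan also called testican, had 1.28 to 1.79 FPKM in KO and 0.915 to 1.04 FPKM in control libraries under Wnt3a and activin A, without overlap (log2 fold change 0.38, limma adjusted p = 0.0787). Its LIF values were 0.159 to 0.518 FPKM in KO and 0.0692 to 0.122 FPKM in control libraries.

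Gucy1a2 encodes a subunit of the guanylate cyclase that makes cGMP in response to nitric oxide (ENSMUSG00000041624, chromosome 9, 3532778 to 3894736). It had 2.22, 1.30 and 1.42 FPKM in KO libraries under Wnt3a and activin A, against 0.483, 0.430 and 0.952 FPKM in control libraries, without overlap (log2 fold change 0.70, SE 0.22, limma adjusted p = 0.0367). Gucy1a2 passed the level minimum through these KO libraries, so this change is a description. The call ended with quantile normalization (adjusted p = 0.0766), with no filter (0.0594), after removal of the dependence on span and level (0.262), and without KO replicate 1 or 3 or control replicate 1 or 2 (0.0545 to 0.0831). In LIF it was at 0.253 to 0.272 FPKM in KO and 0.152 to 0.198 FPKM in control libraries, under the level minimum. Pde4b, a phosphodiesterase that breaks down cAMP, had 1.09, 0.926 and 0.516 FPKM in KO libraries under Wnt3a and activin A, against 1.92, 1.54 and 1.14 FPKM in control libraries (log2 fold change -0.46, limma adjusted p = 0.109). In LIF the Pde4b order was the other way, with 0.230 to 0.524 FPKM in KO and 0.0447 to 0.184 FPKM in control libraries, all under the minimum.

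Prkd1, the protein kinase D1 gene, had 2.81 to 3.38 FPKM in KO and 2.05 to 2.46 FPKM in control libraries under Wnt3a and activin A (log2 fold change 0.33, limma adjusted p = 0.0569). Its LIF values were 1.16 to 1.31 FPKM in KO and 0.808 to 0.880 FPKM in control libraries (log2 fold change 0.27, limma adjusted p = 0.320). Prkd1 libraries did not overlap between genotypes in either condition. Stk3, a kinase of the Hippo pathway, had 3.98 to 4.96 FPKM in KO and 3.16 to 3.71 FPKM in control libraries under Wnt3a and activin A (log2 fold change 0.33, limma adjusted p = 0.0514). In LIF the ranges of Stk3 were 7.37 to 11.3 FPKM in KO and 7.29 to 11.7 FPKM in control libraries. Sh3kbp1, an adaptor in the uptake of growth factor receptors, had log2 fold changes of 0.44 under Wnt3a and activin A and 0.58 in LIF (limma adjusted p = 0.0550 and 0.131), with KO libraries above the controls in both. Among 69 tested genes of a list of kinase and phosphatase genes, members left out, 31 rose and 4 fell under Wnt3a and activin A, and the median log2 fold change was 0.36. In LIF 0 of 70 rose and 2 fell, with a median of -0.03, against 0.958% higher and 3.45% lower over all tested genes. All role lists taken as one held 656 tested genes, of which 302 rose and 52 fell under Wnt3a and activin A. Their median was 0.39, against 19.6% higher, 29.5% lower and a median of -0.08 over all tested genes, so the lean of the kinase list is shared by the lists as a whole. The lists came from textbook knowledge of the roles and were chosen with earlier results of these data known. They were not matched to all tested genes for span or level, and they were not tested as sets.

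Rad51b and Smyd3, which act in DNA repair and lysine methylation, both fell under Wnt3a and activin A. Rad51b encodes a protein that helps repair DNA breaks by homologous recombination (ENSMUSG00000059060, chromosome 12, 79297282 to 79814690). It had 1.46, 2.04 and 1.36 FPKM in KO libraries under Wnt3a and activin A, against 2.84, 3.32 and 3.29 FPKM in control libraries. All KO libraries were below all controls (log2 fold change -0.67, SE 0.14, limma adjusted p = 0.0105). Under LIF its levels were 3.58, 3.01 and 3.92 FPKM in KO libraries, against 4.13, 3.18 and 3.61 FPKM in control libraries, with overlap (log2 fold change -0.04, limma adjusted p = 0.872). The KO effect differed between conditions by -0.63 (SE 0.19, limma adjusted p = 0.0239). That difference between conditions no longer passed with no filter (adjusted p = 0.0505), or without KO replicate 1 or 3 or control replicate 2 of the differentiating libraries, or KO replicate 1 or 3 or control replicate 2 in LIF (0.0501 to 0.0578).

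Smyd3 encodes a lysine methyltransferase with a SET domain (ENSMUSG00000055067, chromosome 1, 178951960 to 179518041). It had 10.0, 9.63 and 11.0 FPKM in KO libraries under Wnt3a and activin A, against 14.5, 14.7 and 18.8 FPKM in control libraries. The groups did not overlap (log2 fold change -0.59, SE 0.12, limma adjusted p = 0.00701). In LIF its levels were 22.0, 17.8 and 20.5 FPKM in KO libraries, against 22.5, 25.9 and 26.3 FPKM in control libraries. KO libraries were again all lower, and the LIF difference did not pass the threshold (log2 fold change -0.30, limma adjusted p = 0.149), nor did the difference between conditions (-0.29, SE 0.16, limma adjusted p = 0.177). Among 74 tested genes of a list of chromatin regulators, members left out, 42 rose and 8 fell under Wnt3a and activin A, a lean that the role lists share as a whole. In LIF 0 of 76 rose and 4 fell, against 0.958% higher and 3.45% lower over all tested genes. Among 47 tested genes of a list for DNA repair, replication and fragile sites, 16 rose and 13 fell under Wnt3a and activin A. Over all tested genes 19.6% were higher and 29.5% lower there.

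Ehbp1 links endocytic membranes to actin (ENSMUSG00000042302, chromosome 11, 22005828 to 22342292). It had 3.46, 3.22 and 2.98 FPKM in KO libraries under Wnt3a and activin A, against 2.29, 1.75 and 2.55 FPKM in control libraries (log2 fold change 0.41, SE 0.14, limma adjusted p = 0.0488). The groups did not overlap, but the call lay at the threshold and ended in 5 of the 6 fits that left out 1 library, all but that without control replicate 3 (adjusted p 0.0712 to 0.117). It also ended with no filter (0.123), quantile normalization (0.134) and removal of the dependence on span and level (0.747). In LIF Ehbp1 had 4.32 to 5.25 FPKM in KO and 4.37 to 5.31 FPKM in control libraries. Vti1a, a SNARE protein of vesicle fusion, had 8.18, 6.91 and 6.62 FPKM in KO libraries under Wnt3a and activin A, against 8.63, 8.06 and 10.4 FPKM in control libraries, with overlap (log2 fold change -0.28, limma adjusted p = 0.103).

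Camkmt, which methylates a lysine of calmodulin, passed no threshold within a condition. It had 3.76, 3.25 and 4.19 FPKM in KO libraries under Wnt3a and activin A, against 3.85, 3.53 and 2.54 FPKM in control libraries (log2 fold change 0.14, limma adjusted p = 0.481). Its LIF values were 3.23, 2.87 and 2.21 FPKM in KO libraries, against 3.98, 4.38 and 4.44 FPKM in control libraries (log2 fold change -0.49, limma adjusted p = 0.0970). The difference between the 2 effects was 0.63 (SE 0.21, limma adjusted p = 0.0337), and it no longer passed in 7 of the 12 fits that left out 1 library (adjusted p 0.0511 to 0.0758). It also no longer passed with no filter (0.0686), after quantile normalization (0.0808) and after removal of the dependence on span and level, where it was 0.27 (0.319).

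Btbd3 encodes a BTB-domain protein that orients dendrites in the mouse cortex (ENSMUSG00000062098, chromosome 2, 138256565 to 138589292). It had 4.63, 5.19 and 4.41 FPKM in KO libraries under Wnt3a and activin A, against 2.37, 2.55 and 2.505 FPKM in control libraries. The groups did not overlap (log2 fold change 0.72, SE 0.10, limma adjusted p = 0.00184). Its LIF values were 4.99, 5.40 and 5.31 FPKM in KO libraries, against 5.39, 5.45 and 5.59 FPKM in control libraries (log2 fold change -0.06, limma adjusted p = 0.694). The KO effect differed between conditions by 0.78 (SE 0.11, limma adjusted p = 0.000445). As with Robo1, the low group was the differentiating controls. Its RefSeq gene on the plus strand begins at 138256584 and ends at 138287424, so Btbd3 is counted as long only through the downstream part of its locus in the tables.

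In LIF, 15 of the 20 long genes reached a mean of 1 FPKM and were tested. The membership rule used no values of the libraries in LIF, but the members were chosen with earlier results of these data known. None of the 15 rose and 1, Dlc1, fell (limma adjusted p under 0.05 over 13153 genes), while 4.41% of all tested genes were called, 0.958% higher and 3.45% lower. At an unadjusted p under 0.05, 6 of the 15 passed, 3 higher and 3 lower, against 24.5% of all tested genes, 6.32% higher and 18.2% lower. The authors' deposited table, by its own q-value, called 2 of 16 tested long genes in LIF, Kalrn higher and Dlc1 lower, against 6.73% of its tested genes. Over all tested genes, the split of 126 higher and 454 lower became 164 and 196 after median-of-ratios rescaling. The KO libraries lay all above the controls in 4 of the 15 and all below in 5, against 8.66% and 22.5% of all tested genes. The median log2 fold change was 0.02, against -0.07 over all tested genes.

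**Figure D2:**
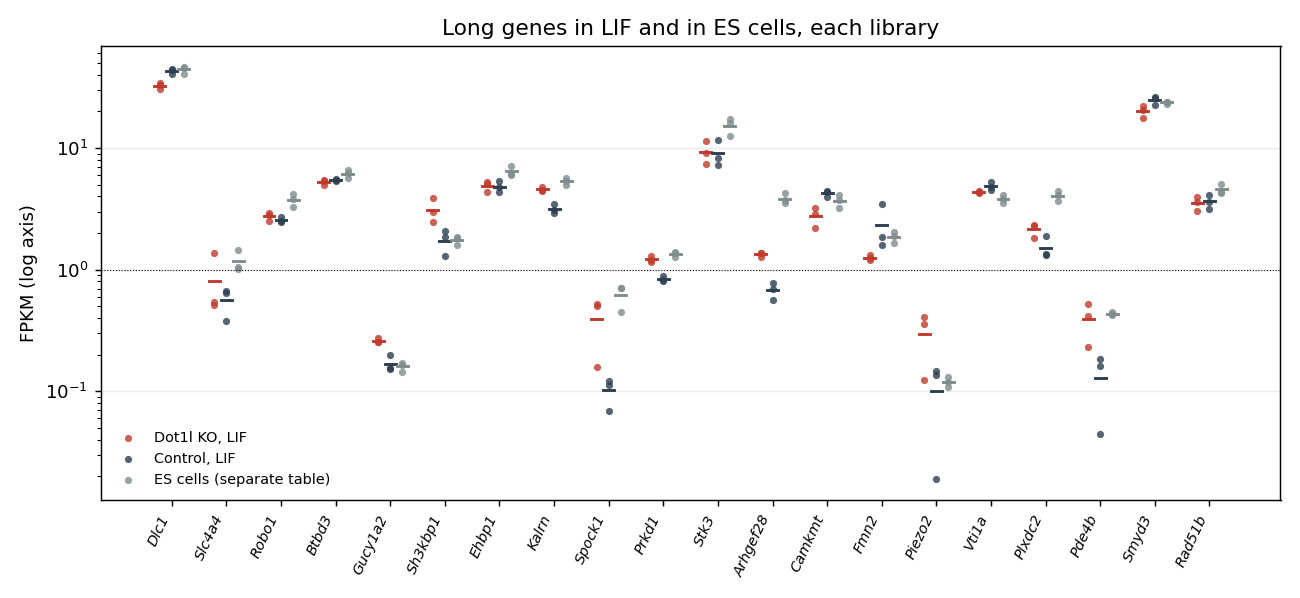
FPKM (log axis) of the 20 long genes in each of 3 KO and 3 control libraries in LIF and in 3 ES cell libraries of a separate table. Points are libraries, short bars are group means, and the dotted line marks 1 FPKM, under which the means of Slc4a4, Gucy1a2, Spock1, Piezo2 and Pde4b lie in the LIF table.

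Spock1, Pde4b, Gucy1a2, Slc4a4 and Piezo2 were under the minimum in LIF. Spock1, Pde4b and Gucy1a2 had KO libraries all above the controls there, and Slc4a4 and Piezo2 overlapped. With no filter on low values their log2 fold changes in LIF were 0.33, 0.30, 0.11, 0.18 and 0.23, in that order, and their limma adjusted p-values lay between 0.236 and 0.681. The scale of log2(FPKM + 1) understates the change of genes at such levels.

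**Figure D3:**
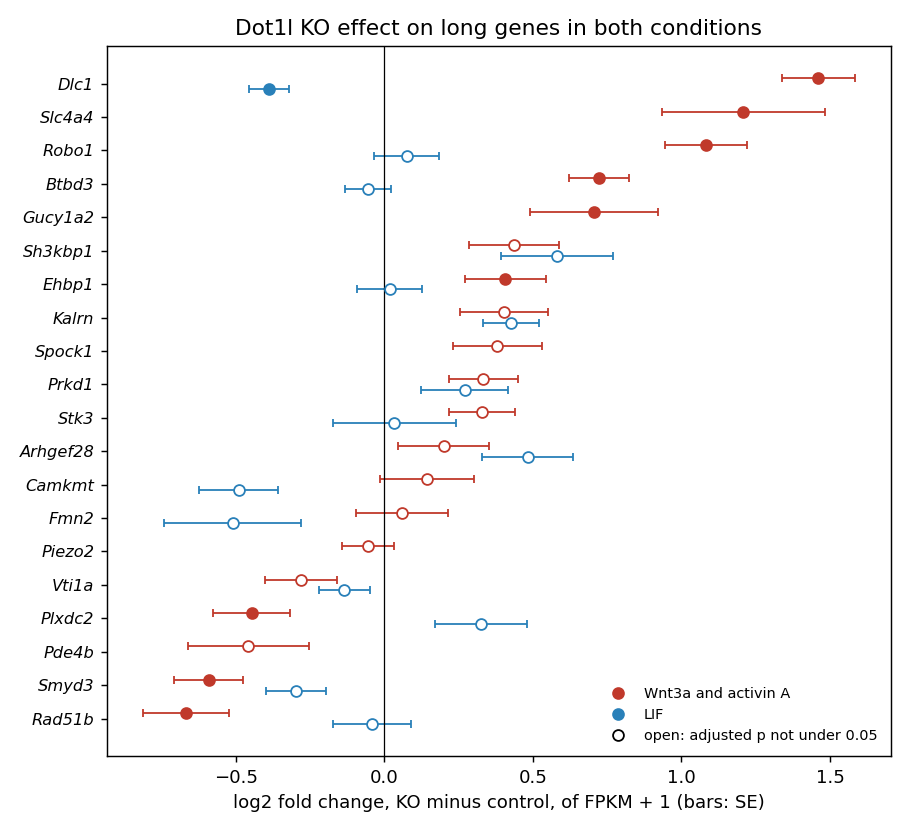
Log2 fold change of FPKM + 1, KO minus control, with its SE for each long gene under Wnt3a and activin A (red) and in LIF (blue, for the 15 genes tested there). Filled points passed an adjusted p of 0.05, and Dlc1 is the gene with filled points on both sides of 0, at 1.46 and -0.39.

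The KO effect differed between conditions for 6 of the 15 long genes tested in both, against 38.3% of all 11783 genes tested. It was more positive under Wnt3a and activin A for Dlc1, Robo1, Btbd3 and Camkmt, and more negative for Rad51b and Plxdc2. The shares over all tested genes were 17.6% and 20.7%. Robo1 had passed the level minimum only through the KO libraries under Wnt3a and activin A, so its difference is a description. For Kalrn the estimate of the difference was -0.02 with an SE of 0.17, and for Prkd1 it was 0.06 with an SE of 0.15. Both genes had positive KO effects in both conditions, none of them past the threshold.

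The members are set beside genes of other spans as a description, since their level under Wnt3a and activin A was used to choose them. Among genes at a locus of their own, the median log2 fold change under Wnt3a and activin A was -0.24 under 30 kb, 0.16 from 30 to 100 kb, 0.38 from 100 to 200 kb, 0.22 from 200 to 300 kb and 0.33 over 300 kb. The share higher was 11.4%, 33.5%, 45.5%, 26.7% and 30.0%, and the share lower was 40.1%, 13.7%, 9.46%, 15.6% and 15.0%, over 4113, 1369, 222, 45 and 20 genes. Within the level range of the members, genes under 30 kb had a median of -0.09 and those of 100 to 200 kb one of 0.43. In LIF the medians of the same 5 classes were -0.07, -0.03, -0.05, -0.13 and 0.02. The differences between span classes were not tested. Among the members, the Spearman correlation of the log2 fold change with span was -0.22 and with mean level -0.26 (n = 20 genes that share the same 6 libraries).

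**Figure D4:**
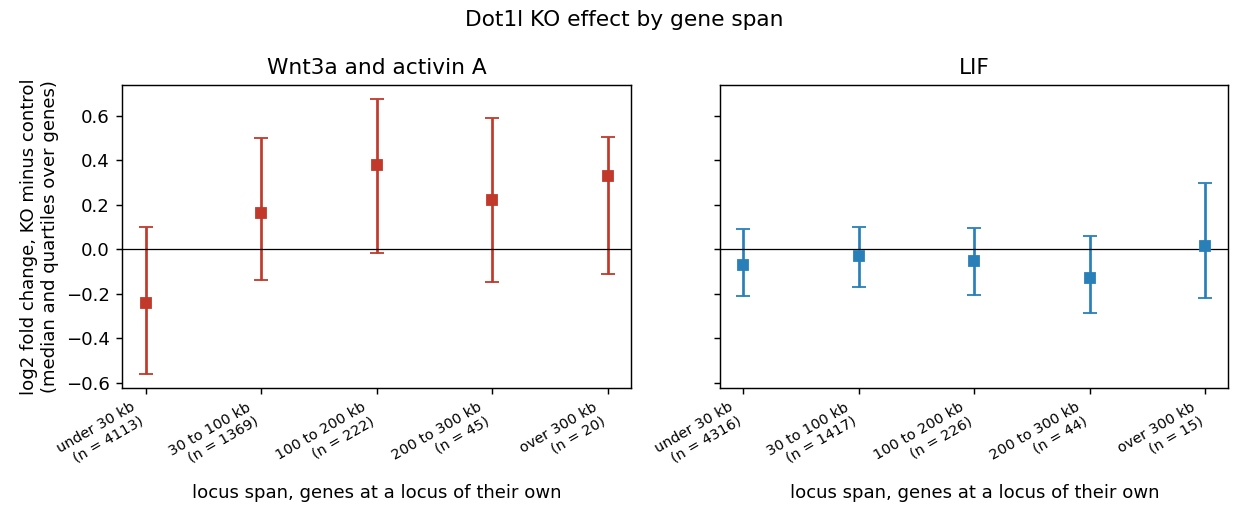
Median log2 fold change of FPKM + 1, KO minus control, over genes at a locus of their own by locus span, under Wnt3a and activin A (left) and in LIF (right). Squares are medians and bars reach the quartiles over genes; on the left the medians run from -0.24 under 30 kb to 0.38 at 100 to 200 kb and 0.33 over 300 kb.

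Levels in the tables, which were scaled separately, are set side by side without a test. They differed more between conditions than between genotypes for members such as Dlc1, Stk3, Plxdc2 and Piezo2. Smyd3 averaged 10.2 ± 0.704 FPKM in KO and 16.0 ± 2.40 FPKM in control libraries under Wnt3a and activin A, 20.1 ± 2.15 in KO and 24.9 ± 2.13 in control libraries in LIF, and 23.7 ± 0.484 in ES cells (SD, n = 3 each). Stk3 averaged 4.54 ± 0.501 and 3.40 ± 0.278 FPKM in KO and control libraries under Wnt3a and activin A, 9.29 ± 1.99 and 9.09 ± 2.31 in KO and control libraries in LIF, and 15.3 ± 2.37 in ES cells. Dlc1, Stk3 and Smyd3 were thus lower in the differentiating groups. Plxdc2 and Piezo2 were at a higher level there, with Plxdc2 at 7.57 ± 1.08 and 10.7 ± 1.22 FPKM in KO and control libraries under Wnt3a and activin A, 2.15 ± 0.292 and 1.52 ± 0.319 in LIF, and 4.05 ± 0.395 in ES cells. In ES cells 16 of the 20 members had a mean of at least 1 FPKM, from 1.18 FPKM for Slc4a4 to 44.3 FPKM for Dlc1.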

How the data were processed

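The authors deposited RNA-seq tables of FPKM, 1 value for each gene in each library, and a p-value, a q-value and a test score per gene for KO against control; the authors' scores were not used. The tools include Cufflinks 2.2.1, Cuffdiff and STAR 2.5.4a, per the submitters' processing notes, which list mm9 and GRCm38 as builds, without a statement of which served which file. How libraries were scaled is not stated. Depth is unknown: the lowest values gave a rough relative depth of 0.509 to 0.695 in control libraries and 0.826 to 1.00 in KO libraries under Wnt3a and activin A, and 0.626 to 1.30 in LIF, with 24.5% to 33.1% of ratios within 0.1 (log2) of their mode.

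Genes averaging 1 FPKM or more in a KO table were fitted together on log2(FPKM + 1) by limma-trend (limma 3.58.1 under R 4.3.3), two-sided, and p-values were adjusted after Benjamini and Hochberg over all genes fitted, with calls at 0.05 (Benjamini-Hochberg). The difference between conditions was the contrast of the 2 KO effects over 12 libraries. The fits were tested on simulated data. Fold changes are KO minus control. FPKM divides by library size, so abundant genes that change shift all others. By a fixed rule the text names members past the threshold, the longest, the highest, those nearest each minimum and the highest of each role; all 20 are named. The members and lists were chosen with earlier results of these data known. Starts of expressed genes in GRCm38.p6 lay in 5.10% and 11.2% of cases in the DMSO and 3-MB-PP1 H3K79me2 peaks unshifted, and in 21.5% and 30.2% after the best shift per chromosome, with no shift best on 0 of 19 chromosomes. The peak lists were therefore not joined to the genes. The planned description of H3K79me2 over these genes was not run. Alternatives are given in the closing section.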

Additional observations from a re-analysis of the deposited data

Results flagged for a closer look

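The KO effect on 6 long genes differed between Wnt3a and activin A and LIF by a test of the difference itself. The difference in log2 fold change was 1.85 for Dlc1 (SE 0.13, limma adjusted p = 7.93e-06), 1.01 for Robo1 (SE 0.15, adjusted p = 0.000564) and 0.78 for Btbd3 (SE 0.11, adjusted p = 0.000445). It was 0.63 for Camkmt (SE 0.21, adjusted p = 0.0337), -0.63 for Rad51b (SE 0.19, adjusted p = 0.0239) and -0.77 for Plxdc2 (SE 0.19, adjusted p = 0.00972). Over all 11783 genes tested in both conditions 38.3% passed the same test. The difference for Camkmt no longer passed in 7 of 12 fits without 1 library, with no filter, after quantile normalization and after removal of the span and level trend, and that for Rad51b in 6 of 12 fits without 1 library and with no filter. Robo1 had passed the level minimum only through the KO libraries under Wnt3a and activin A, where it was high.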

How the results depend on the processing

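The 9 calls under Wnt3a and activin A became 2 with a mean of at least 5 FPKM (4 genes tested), 28 with a span minimum of 200 kb (65 tested), 2 with 500 kb (4 tested) and 14 by the authors' q-value; the other settings gave 6 to 13, and leaving out 1 library 6 to 9. The 1 call in LIF became 0 with no filter, median-of-ratios rescaling, quantile normalization, the span and level trend removed, a log2 change of at least 0.5, or a span minimum of 500 kb, and 0 in all fits without 1 library; it became 6 at 200 kb and 2 by the authors' q-value. Without a limma trend the 1 call in LIF was Arhgef28, not Dlc1. The 6 differences between conditions became 0 at 5 FPKM (1 tested), 22 at 200 kb and 1 at 500 kb, and 4 to 6 without 1 library. The median under Wnt3a and activin A (0.33) was 0.20 after quantile normalization, -0.36 at 5 FPKM, -0.0117 with the trend removed and -0.52 at 500 kb. The median in LIF (0.02) was -0.18 at 5 FPKM, -0.11 at 200 kb, -0.0428 at 500 kb and -0.0379 to 0.0438 without 1 library; it was 0.0920 with no filter, 0.0833 after rescaling and 0.0725 with the trend removed. Removal of the trend subtracts the change that goes with span and level, by which the members were chosen. Their median and signs after it are therefore no independent check. A span or level minimum itself brings fewer or additional genes. The cause of the other moves was not tested.

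No called effect changed sign, but uncalled ones did. With the trend removed, effects under Wnt3a and activin A were -0.0189 for Prkd1, -0.16 for Arhgef28, -0.00438 for Stk3, -0.32 for Fmn2 and -0.18 for Camkmt, and differences between conditions were -0.11 for Prkd1, -0.14 for Stk3 and -0.0272 for Ehbp1. Fmn2 was -0.0739 after quantile normalization, Piezo2 0.0280 after rescaling, and the Prkd1 difference -0.0470 with a pseudocount of 0.1. In LIF, Rad51b was 0.0197 after rescaling and 0.0151 with the trend removed, and Btbd3 was 0.0111 and 0.0251. Without 1 library, LIF effects ran from -0.11 to 0.21 for Stk3, -0.0379 to 0.0878 for Ehbp1 and -0.12 to 0.0386 for Rad51b, Fmn2 under Wnt3a and activin A from -0.0179 to 0.13, and the Kalrn difference from -0.17 to 0.0701.

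Libraries with the same replicate number showed no clear common deviation. Correlations of their deviations were -0.0119, 0.0621 and 0.00446 under Wnt3a and activin A and 0.0426, 0.0188 and -0.00271 in LIF. Such correlations cannot exclude a shared day or batch, which the labels do not give. A fit with a replicate block called 7 members under Wnt3a and activin A, 0 in LIF and 5 differences between conditions. The calls it ended were Gucy1a2 (adjusted p = 0.0751) and Ehbp1 (0.0938) under Wnt3a and activin A, Dlc1 in LIF (0.154) and the Camkmt difference (0.0896).

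FPKM carries no depth, so no floor can be given for genes listed near 0, and rough relative depth was higher in KO than in control libraries under Wnt3a and activin A.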
